A study of Mus musculus with 11 samples.

Results

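The matricellular genes described here encode osteonectin and its relative hevin (Sparc, Sparcl1), thrombospondins (Thbs1, Thbs2, Thbs3, Thbs4), tenascins (Tnc, Tnn, Tnxb) and periostin (Postn). They were taken by symbol from the merged count table, and make up 10 of its 22600 genes. Matricellular proteins are secreted into the extracellular matrix, where most of them tune how cells adhere, migrate and respond to growth factors rather than bearing load. Osteonectin binds collagen and mineral and is among the most abundant noncollagenous proteins of bone. Periostin is named for the periosteum, where it assists collagen crosslinking, and tenascin-C is laid down where bone and tendon form, heal or bear strain.

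RNA was sequenced from whole distal tibiae, a site rich in BM adipocytes (BMAds), with 1 library per mouse. The 4 Control mice (genotype label BMAd-WT) and the 7 BMAd-DTA mice were labelled as strain C57BL6/SJL, 24 weeks old and fed ad libitum, and by the study's methods all carried Osterix-FLPo and the FAC allele. FAC drives Cre from the Adipoq locus only after FLPo recombination, so that Cre is limited to adipocytes that descend from Osterix-expressing cells. BMAd-DTA mice carried in addition the ROSA-DTA allele, in which Cre removes a stop cassette and the cell then makes diphtheria toxin A, which kills it. The comparison asked how loss of BMAds alters gene expression in the surrounding bone. By the study's account the recombination was incomplete, and Cre was also active in a small share of marrow stromal cells of the adipocyte lineage.

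Libraries held 16969529 to 18637663 counts assigned to genes. Levels are given as CPM (counts scaled to a common library size with edgeR's TMM factors), and a log2 fold change is BMAd-DTA over Control. A gene is called where its p from edgeR's quasi-likelihood test, adjusted by Benjamini-Hochberg over 16496 tested genes, is under 0.05, which held for 0.0788% of the tested genes. No gene was called without Control replicate 1 or 2, or without BMAd-DTA replicate 1 or 6, so that each call named here is lost without any of these mice. Of 8 adipocyte markers, 8 had a lower mean in BMAd-DTA mice and 1, the adipokine gene Retn, was called. The summed adipocyte markers ranged from 651 to 1350 CPM in Control mice and from 242 to 871 CPM in BMAd-DTA mice, so the groups overlapped. Markers of osteoblasts and osteocytes were present in every library (10 of 10 passed the filter on low counts), while summed skeletal muscle markers varied from 19.1 to 1370 CPM in Control mice and from 22.1 to 1060 CPM in BMAd-DTA mice. The medians of this muscle sum were 546 CPM in Control and 185 CPM in BMAd-DTA mice. All 10 muscle markers had a lower mean in BMAd-DTA mice, 0 of them at an unadjusted p under 0.05 from edgeR's test, compared with 8.53% of all tested genes.

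All 10 matricellular genes passed the filter on low counts, the lowest count being 51 for Tnn. Of the 10, 9 had a higher mean in BMAd-DTA mice, but edgeR's test called 0 of 10. At an unadjusted p under 0.05, 6 of 10 were higher in BMAd-DTA mice, where 7.89% of all tested genes were. The groups did not overlap for 3 of 10, Sparc, Tnc and Postn, with BMAd-DTA mice higher, compared with 1.78% of all tested genes. DESeq2, run as an alternative, called the same 3 genes as higher, and 2.78% of the genes to which it gave an adjusted p. On simulated data with 200 changed genes, DESeq2 made 26 to 36 false calls, where edgeR made 8 to 11. DESeq2 recovered 76% to 77% of the changed genes there, and edgeR 71.5% to 72.5%. In the data DESeq2 called 845 genes, so the share of false calls in the simulation does not carry over to them. The median log2 fold change was 0.394 over the 10 genes and 0.0018 over all tested genes, 8307 of which were above 0. Because whole bone was sequenced, more cells of a type and more RNA per cell cannot be told apart.

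Promoter sequence was available from RefSeq (GRCm38.p6) for 8 of 10 genes, in 10 windows of 250 bases before to 50 bases after a transcription start site. Sparc, Tnc and Postn are shown because they had the largest differences, each from 100 bases before to 20 bases after the start, 5′ to 3′ on the gene's strand, with the letters TATATAA in capitals where they occur.
Sparc (chr11:55420061-55420180, minus strand): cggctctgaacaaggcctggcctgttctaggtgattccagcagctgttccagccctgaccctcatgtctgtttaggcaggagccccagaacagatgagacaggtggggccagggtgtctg
Tnc (chr4:64046917-64047036, minus strand): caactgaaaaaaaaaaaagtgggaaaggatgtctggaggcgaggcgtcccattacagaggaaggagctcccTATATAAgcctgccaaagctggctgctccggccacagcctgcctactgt
Postn (chr3:54361007-54361126, plus strand): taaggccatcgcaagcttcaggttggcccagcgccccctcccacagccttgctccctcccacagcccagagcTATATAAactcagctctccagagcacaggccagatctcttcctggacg
TATATAA, a form of the TATA box, was searched on both strands and lay 29 bases before the Tnc start and 28 bases before the Postn start. Of 32851 windows of this length, 3.24% hold these letters, and no window of the other genes held them. The other Tnc window (chr4:64046966-64047265) and the other Postn window (chr3:54359017-54359316) did not hold them either, so the match belongs to 1 of the start sites of each gene. For Sparc, 1 copy of the RUNX letters TGTGGT (16.8% of windows), read as ACCACA, lay 35 bases after the start and outside the stretch shown. The TEAD letters GGAATG (14.7% of windows) were found in the Tnn window and at 2 places that overlap by 1 base in the Thbs4 window, and the AP-1 letters TGACTCA (5.2% of windows) in the Tnxb window. No searched motif overlapped a different one. These matches describe the letters and not binding.

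Sparc, which encodes osteonectin (chromosome 11, 55394500 to 55423183, minus strand, GRCm38), was the most abundant of the 10 genes. Its level was 759, 1940, 2110 and 1570 CPM in Control replicates 1 to 4. In BMAd-DTA mice it ranged from 2230 to 5180 CPM, with a median of 3130. Every BMAd-DTA mouse lay above every Control mouse, and Control replicate 1 lay far under the other Control mice. The means were 1595 ± 601.5 CPM (SD, n = 4) in Control and 3354 ± 1032 CPM (SD, n = 7) in BMAd-DTA mice, a fold of 2.1 with a 95% interval of 1.38 to 3.2. On the log2 scale the difference was 1.07 (standard error, SE, 0.28), with an adjusted p of 0.0957 from edgeR's test and 0.0162 from DESeq2. Without Control replicate 1 the log2 fold change was 0.84 and edgeR's adjusted p 0.243.

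Sparcl1, which encodes the osteonectin relative hevin (chromosome 5, 104079111 to 104113733, minus strand), was the only gene of the 10 with a lower mean in BMAd-DTA mice. Its level was 125, 105, 173 and 101 CPM in Control replicates 1 to 4, and ranged from 78.2 to 140 CPM, with a median of 126, in BMAd-DTA mice. The groups overlapped, and Control replicate 3 was the highest of all 11 mice. The log2 fold change was -0.18 (SE 0.19, 95% interval -0.58 to 0.22, edgeR adjusted p = 0.694), and without Control replicate 3 it was 0.02. With any other mouse left out it was -0.27 to -0.11. The ratio of Sparc to Sparcl1 counts was 6.05 to 18.5 in Control mice and 17.7 to 55.2 in BMAd-DTA mice.

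**Figure D1:**
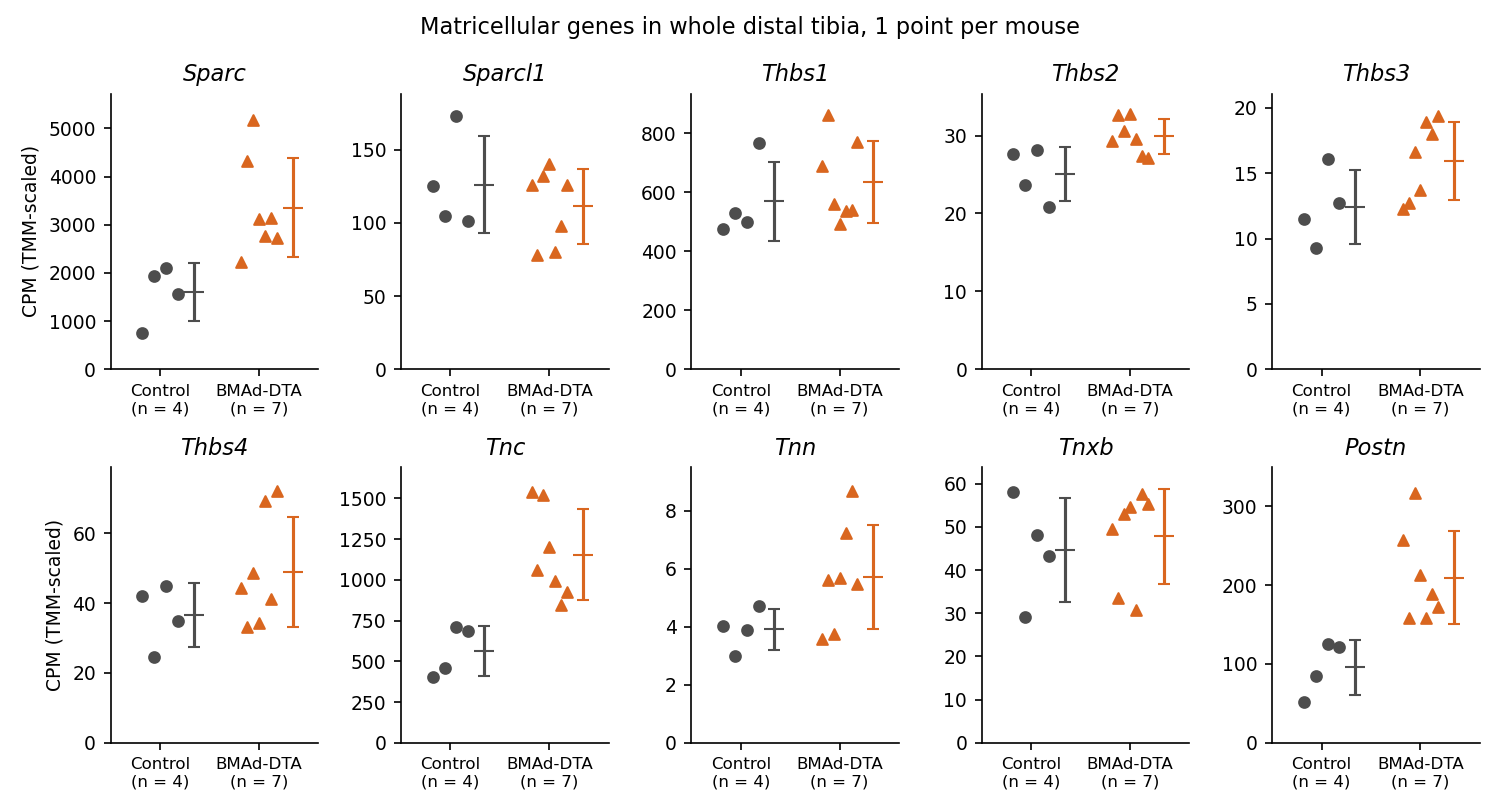
TMM-scaled CPM (vertical axes, each from 0) of the 10 matricellular genes in whole distal tibia, with 1 point per mouse, circles for 4 Control and triangles for 7 BMAd-DTA mice; the horizontal marks are the means and the bars the SD. For Sparc, Tnc and Postn every triangle lies above every circle, while for Sparcl1, Thbs1 and Tnxb the groups overlap broadly.

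Postn, which encodes periostin (chromosome 3, 54361109 to 54391037, plus strand), had the largest log2 fold change of the 10. Its level was 51.7, 84.4, 126 and 122 CPM in Control replicates 1 to 4, and ranged from 158 to 317 CPM, with a median of 189, in BMAd-DTA mice. The highest Control mouse lay under the lowest BMAd-DTA mouse, and Control replicate 1 was again the lowest mouse. The means were 96.1 ± 35 CPM (SD, n = 4) and 209 ± 59.2 CPM (SD, n = 7), a fold of 2.18 with a 95% interval of 1.49 to 3.18. This is a log2 fold change of 1.12 (SE 0.25), with an adjusted p of 0.072 from edgeR's test and 0.00496 from DESeq2.

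Tnc, which encodes tenascin-C (chromosome 4, 63959785 to 64047015, minus strand), had the smallest p of the 10. Its level was 404, 461, 709 and 684 CPM in Control replicates 1 to 4, and ranged from 847 to 1540 CPM, with a median of 1060, in BMAd-DTA mice. The groups did not overlap, and BMAd-DTA replicates 1 and 3 were the highest mice for this gene and for Postn alike. The means were 564 ± 155 CPM (SD, n = 4) and 1155 ± 280 CPM (SD, n = 7), a fold of 2.05 with a 95% interval of 1.5 to 2.78. In log2 units the difference was 1.03 (SE 0.21), with an adjusted p of 0.0675 from edgeR's test and 3.05e-05 from DESeq2. Without Control replicate 3, edgeR's adjusted p was 0.0393 for Tnc and 0.0458 for Postn, and both would be called. With another mouse left out neither was called, and the adjusted p reached 0.228 for Tnc and 0.234 for Postn without Control replicate 1, and 0.161 and 0.176 without Control replicate 2. The ratio of Tnc to Postn counts was alike in the groups, at 5.46 to 7.81 in Control and 4.48 to 6.69 in BMAd-DTA mice.

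The other tenascins were far less abundant. Tnn encodes tenascin-W (chromosome 1, 160085029 to 160153580, minus strand), which is found in the periosteum and around osteoblasts. It had 4.02, 3, 3.9 and 4.72 CPM in Control replicates 1 to 4 and 3.59 to 8.69 CPM, with a median of 5.62, in BMAd-DTA mice. Of the BMAd-DTA mice, 5 of 7 lay above all Control mice, and the other 2 lay within their range. EdgeR gave a log2 fold change of 0.55 (SE 0.24, unadjusted p = 0.0417, edgeR adjusted p = 0.28). Tnn rested on 51 to 148 counts per library, the fewest of the 10 genes.

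Tnxb encodes tenascin-X (chromosome 17, 34670535 to 34719815, plus strand), which stabilises collagen in skin, tendon and other soft connective tissue. It had 58.1, 29.1, 48.2 and 43.3 CPM in Control replicates 1 to 4 and 30.8 to 57.6 CPM, with a median of 53.1, in BMAd-DTA mice. The highest and the lowest mouse were both Control mice. The log2 fold change was 0.10 (SE 0.20, 95% interval -0.34 to 0.53, edgeR adjusted p = 0.86), and without Control replicate 2 it was -0.06. Without Control replicate 1 it was 0.25. The ratio of Tnc to Tnxb counts was 6.95 to 15.8 in Control and 14.7 to 32.2 in BMAd-DTA mice.

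The thrombospondins had log2 fold changes of 0.16 to 0.42. Thbs1 and Thbs2, the trimeric members known for restraining angiogenesis, and Thbs3 and Thbs4, pentameric members found in cartilage, bone and tendon, are described in turn. Thbs1 (chromosome 2, 118111876 to 118127133, plus strand) is also stored in platelets and can activate TGF-beta. Its level was 477, 529, 501 and 769 CPM in Control replicates 1 to 4 and ranged from 494 to 861 CPM, with a median of 560, in BMAd-DTA mice. The ranges nearly coincided, and the log2 fold change was 0.16 (SE 0.17, 95% interval -0.21 to 0.53, edgeR adjusted p = 0.70). It was 0.34 without Control replicate 4, 0.08 without Control replicate 1 and 0.07 without BMAd-DTA replicate 2. The summed megakaryocyte and platelet markers also overlapped, at 1090 to 2030 CPM in Control and 921 to 1700 CPM in BMAd-DTA mice, with 0 of 6 tested markers called.

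Thbs2 (chromosome 17, 14665500 to 14694235, minus strand), whose product is made by osteoprogenitors and fibroblasts, varied the least between mice. It had 27.7, 23.7, 28.1 and 20.8 CPM in Control replicates 1 to 4 and 27.1 to 32.8 CPM, with a median of 29.6, in BMAd-DTA mice. Of the BMAd-DTA mice, 5 of 7 lay above all Control mice. The log2 fold change was small, at 0.26 (SE 0.09, unadjusted p = 0.0186, edgeR adjusted p = 0.199).

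Thbs3 (chromosome 3, 89215180 to 89226837, plus strand) had 11.5, 9.3, 16.1 and 12.7 CPM in Control replicates 1 to 4 and 12.3 to 19.4 CPM, with a median of 16.6, in BMAd-DTA mice. Thbs4 (chromosome 13, 92751590 to 92794818, minus strand) had 42.1, 24.6, 44.8 and 34.8 CPM in Control replicates 1 to 4 and 33 to 72.1 CPM, with a median of 44.2, in BMAd-DTA mice. For both genes Control replicate 2 was the lowest and BMAd-DTA replicate 7 the highest mouse, and the groups overlapped. The log2 fold change was 0.37 for Thbs3 (SE 0.17, unadjusted p = 0.0494, edgeR adjusted p = 0.303) and 0.42 for Thbs4 (SE 0.23, unadjusted p = 0.0935, edgeR adjusted p = 0.394). The ratio of Thbs4 to Thbs3 counts stayed in a narrow range, 2.64 to 3.67 in Control and 2.29 to 3.71 in BMAd-DTA mice. Thbs4 is known from tendon, and the summed tendon markers were 111 to 141 CPM in Control and 107 to 212 CPM in BMAd-DTA mice. Fmod made up most of this sum, at means of 104 CPM in Control and 128 CPM in BMAd-DTA mice. Fmod, whose pattern was nearest to that of Thbs4 (below), is also part of the tendon score. This score was the mean log2 CPM of the 6 tendon markers, each with equal weight, and not their sum. With this tendon score as a covariate the log2 fold change of Thbs4 was 0.20 (SE 0.15, edgeR adjusted p = 0.531), and without Control replicate 2 it was 0.27.

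**Figure D2:**
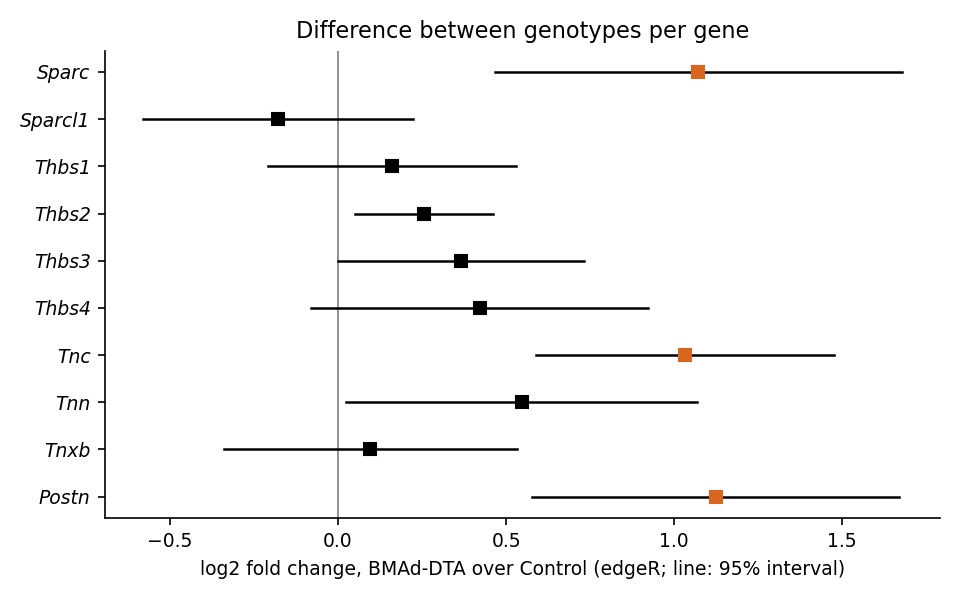
Log2 fold change of each matricellular gene (horizontal axis, BMAd-DTA over Control, 4 and 7 mice), with squares for edgeR's estimate and lines for its 95% interval; orange marks the 3 genes whose groups did not overlap. Postn, Sparc and Tnc lie at 1.12, 1.07 and 1.03, and the interval of Sparcl1, Thbs1, Thbs4 and Tnxb spans 0.

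Read per kilobase of exon (union of all annotated exons, GENCODE M21), the 10 genes spanned from 421 CPM per kb for Sparc to 0.672 CPM per kb for Tnn in Control mice. The order of the Control means was Sparc, Thbs1 (93.7), Tnc (72.6), Sparcl1 (42.9), Thbs4 (11.1), Postn (11), Tnxb (3.66), Thbs2 (3.58), Thbs3 (2.57) and Tnn, all in CPM per kb. Over Control mice the ranges of neighbours overlapped for Thbs1 with Tnc, Tnc with Sparcl1, Thbs4 with Postn, Tnxb with Thbs2 and Thbs2 with Thbs3, so the order within these pairs is not resolved. In BMAd-DTA mice Tnc, at 149 CPM per kb, no longer overlapped with Sparcl1, at 37.9 CPM per kb. With the longest transcript as length, Sparc in Control mice came to 694 and Postn to 18.4 CPM per kb, and Postn passed Thbs4, and Thbs2 passed Tnxb.

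**Figure D3:**
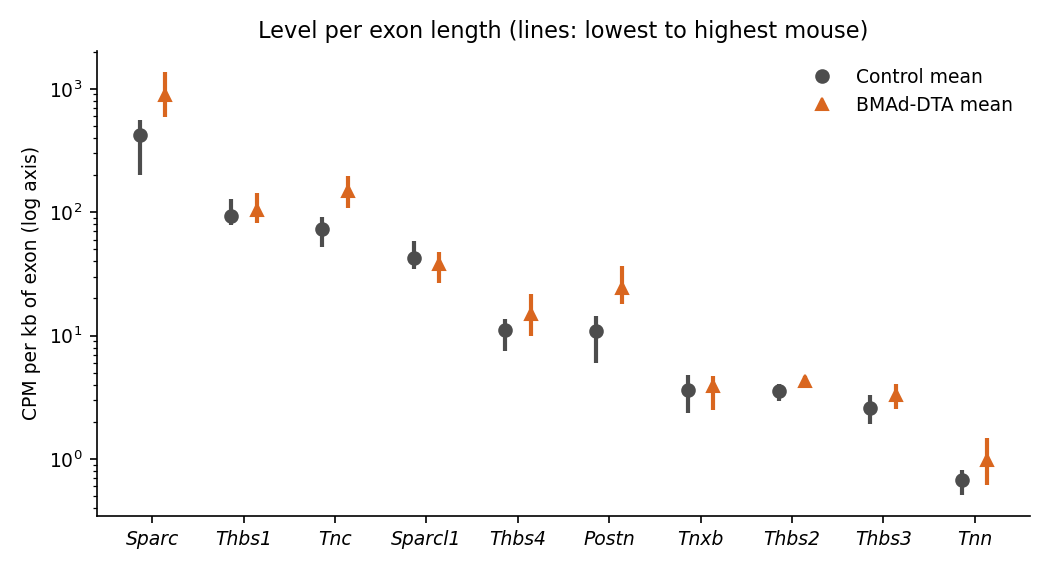
Level per kb of exon (vertical log axis, CPM per kb) of the 10 matricellular genes, ordered by the Control mean, with circles and triangles for the means of 4 Control and 7 BMAd-DTA mice and lines from the lowest to the highest mouse. Sparc stands above all others and Tnn lies lowest in both groups.

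Summed over the 10 genes, the level was 1960 to 3760 CPM in Control mice, with a median of 3280, and 4680 to 7870 CPM in BMAd-DTA mice, with a median of 4980, without overlap. Sparc made up 38.7% to 60.4% of this sum in Control and 44.7% to 65.9% in BMAd-DTA mice. The share of Thbs1 was 13.3% to 24.3% in Control and 7.11% to 15.7% in BMAd-DTA mice, and that of Sparcl1 was 3.02% to 6.4% and 1.19% to 2.63%. A share also falls where the sum rises, and in CPM the groups overlapped for both genes. Mean CPM in Control and BMAd-DTA mice was 569 and 636 for Thbs1, and 126 and 111 for Sparcl1. The 4 summed thrombospondins overlapped between the groups, at 558 to 837 CPM in Control and 574 to 940 CPM in BMAd-DTA mice. The 3 summed tenascins did not, at 466 to 761 CPM and 913 to 1590 CPM. Tnc made up most of the tenascin sum, and the groups overlapped for Tnn and for Tnxb.

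Mice of the same group differed more for 9 of these 10 genes than for the median gene. The pooled within-group SD of log2 CPM was 0.516 for Sparc and 0.464 for Postn, compared with a median of 0.169 over the 12973 genes whose mean count was 50 or more. Thbs2, at 0.148, was the only gene of the 10 under that median. Between the lowest and the highest Control mouse, Sparc differed by 2.79-fold and Postn by 2.44-fold.

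Markers of bone cells, like Sparc, Tnc and Postn, had higher means in BMAd-DTA mice, but did not follow these genes in every mouse. The 10 osteoblast and osteocyte markers (none of them among the matricellular genes) summed to 809, 1230, 1740 and 1170 CPM in Control replicates 1 to 4, and to 1790 to 3250 CPM, with a median of 2140, in BMAd-DTA mice. All 10 had a higher mean in BMAd-DTA mice at an unadjusted p under 0.05, compared with 7.89% of all tested genes. The median log2 fold change of these markers was 0.90. Of the 10, edgeR called 1, Alpl, which encodes the alkaline phosphatase needed for mineralisation. Control replicate 1 was the lowest mouse for these markers as well as for Sparc, Tnc and Postn. BMAd-DTA replicate 3 was the highest for the markers, Sparc and Postn. BMAd-DTA replicate 2 had the next highest marker sum, 3050 CPM, and the next highest Sparc, 4320 CPM. It had the lowest Postn of the BMAd-DTA mice, 158 CPM, and a Tnc level at their median, 1060 CPM. BMAd-DTA replicate 4, with a marker sum of 2030 CPM, had 213 CPM of Postn. Abundant markers weigh most in the sum, and Ibsp alone had means of 425 CPM in Control and 851 CPM in BMAd-DTA mice. The part of bone cell content in the 3 genes was not tested.

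**Figure D4:**
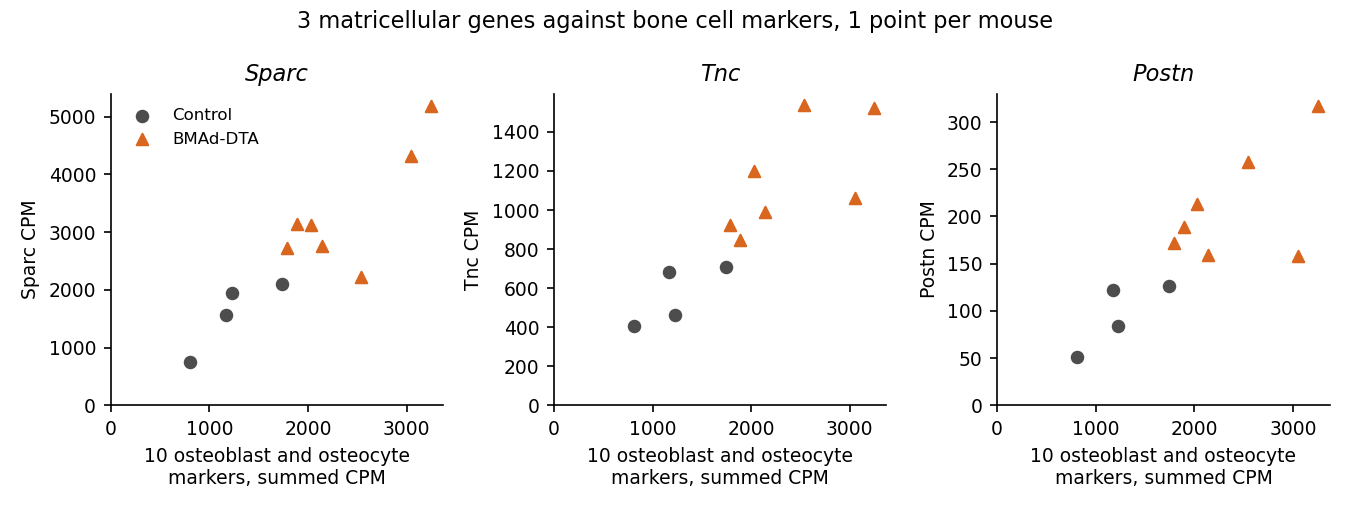
CPM of Sparc, Tnc and Postn (vertical axes) against the summed CPM of 10 osteoblast and osteocyte markers (horizontal axes), with 1 point per mouse, circles for 4 Control and triangles for 7 BMAd-DTA mice. Control replicate 1 lies at the lower left of each panel. BMAd-DTA replicate 2 has a high marker sum (3050 CPM), with much Sparc (4320 CPM) and little Postn (158 CPM) for its group. The marker sums of the groups do not overlap (1740 CPM at most in Control and 1790 CPM at least in BMAd-DTA mice).

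Other cell types were read from their markers in the same way. Chondrocyte markers summed to 195 to 365 CPM in Control and 496 to 658 CPM in BMAd-DTA mice, while 0 of 6 tested chondrocyte markers were called. The sum was made up mostly of Col2a1 (log2 fold change 1.11, edgeR adjusted p = 0.0675, DESeq2 adjusted p = 1.82e-05). The other tested chondrocyte markers had log2 fold changes of 0.95 (Col9a1), 0.19 (Sox9), 0.18 (Acan), 0.15 (Col10a1) and -0.04 (Cnmd). The sums of fibroblast markers (271 to 333 and 287 to 349 CPM), of endothelial markers (830 to 983 and 658 to 977 CPM), of smooth muscle and pericyte markers (205 to 320 and 226 to 332 CPM) and of marrow stroma markers (3180 to 4850 and 3140 to 5140 CPM) overlapped between Control and BMAd-DTA mice. The same held for macrophage markers (3050 to 3580 and 3030 to 3840 CPM) and neutrophil markers (17300 to 19600 and 13900 to 20700 CPM). Lyz2 made up most of the macrophage sum (mean 2510 CPM in Control) and Cxcl12 most of the marrow stroma sum (3360 CPM). Of 5 macrophage markers, 3 had a higher and 2 a lower mean, and of 6 marrow stroma markers 3 and 3. Cd68 was higher without overlap (log2 fold change 0.43, edgeR adjusted p = 0.072, DESeq2 adjusted p = 0.00212). Adgre1 (-0.30, edgeR adjusted p = 0.209) and Lepr (-0.48, edgeR adjusted p = 0.182) had lower means. With the skeletal muscle score as a covariate, the log2 fold changes were 0.97 for Sparc, 0.98 for Tnc and 1.09 for Postn. Their edgeR adjusted p rose to 0.188, 0.132 and 0.135, from 0.0957, 0.0675 and 0.072 without the covariate.

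The genes whose pattern across the 11 libraries was most like each matricellular gene were found by the SD of the log2 ratio of the pair, among 12963 candidates. For Sparc they were Col22a1, a collagen of tissue junctions (SD 0.133), Gxylt2, a xylosyltransferase that acts on Notch (0.15), and Pard6g, a polarity protein (0.18), where Sparc itself had an SD of 0.748. For Postn they were Sp7, the osteoblast transcription factor osterix (0.175), the fibril-associated collagen gene Col12a1 (0.219) and Fgf13 (0.266). For Tnc they were Col12a1 (0.23), Sp7 (0.235) and the atypical cadherin gene Fat1 (0.237). Sp7 is also among the osteoblast and osteocyte markers summed above. Among the 10 genes themselves the closest pairs were Tnc with Postn (0.218) and Thbs3 with Thbs4 (0.254). The SDs of Postn and Tnc themselves were 0.734 and 0.628. These values describe 11 libraries that share the difference between genotypes.

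The nearest genes of Thbs3 were Comp, the cartilage thrombospondin (0.168), Chad, which encodes chondroadherin (0.178), and Mmaa (0.189). Those of Thbs4 were the tendon proteoglycan gene Fmod (0.204), Chad (0.259) and A330023F24Rik (0.272). Tnn was nearest to Emid1 (0.199), Gm13012 (0.219) and Cytl1 (0.268), and Tnxb to Gfpt2 (0.172), Hbegf (0.199) and Cdh13 (0.202). Thbs1 was nearest to Susd5 (0.137), Pxk (0.152) and Phf11c (0.157), Thbs2 to Camkk1 (0.0844), Mrps34 (0.0947) and Nadsyn1 (0.0967), and Sparcl1 to Gm49601 (0.159), Plce1 (0.174) and Chil3 (0.187). The SD of log2 CPM of the gene itself was 0.336 for Thbs3, 0.453 for Thbs4, 0.453 for Tnn, 0.373 for Tnxb, 0.303 for Thbs1, 0.193 for Thbs2 and 0.346 for Sparcl1. A gene that varies little, such as Thbs2, has small ratio SDs with many genes, so these SDs do not rank the likeness between the 10 genes. None of these nearest genes was called by edgeR, the smallest adjusted p among them being 0.0675.

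Of 18 receptors of matricellular proteins tested (integrin subunits, Cd36, Cd47, Lrp1, syndecans and others), 10 had a higher and 8 a lower mean in BMAd-DTA mice, 0 were called, and 3 were higher and 1 lower at an unadjusted p under 0.05, where 7.89% of all tested genes were higher and 8.53% lower. Their median log2 fold change was 0.047. The extremes were Itgav, the integrin alpha V subunit that binds periostin (log2 fold change 0.45, standard error 0.18, edgeR adjusted p = 0.238), and the innate immune receptor gene Tlr4 (-0.25, standard error 0.09, edgeR adjusted p = 0.205). DESeq2 called 1, the syndecan gene Sdc4, as higher, and 2.78% of all genes to which it gave an adjusted p.

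Of 16 other matricellular genes listed, 13 were tested. Ccn6 and Spock1 did not pass the filter, and Spock3 was not found by symbol in the merged count table. Of these 13, 11 had a higher and 2 a lower mean, 0 were called, and 2 were higher and 1 lower at an unadjusted p under 0.05. Over all tested genes, 7.89% were higher and 8.53% lower at that p. Their log2 fold changes had a median of 0.13. Ccn4, a Wnt-induced gene of osteoprogenitors, was highest at 46.8 ± 13.5 CPM in Control (SD, n = 4) and 92.1 ± 23.8 CPM in BMAd-DTA mice (SD, n = 7), a log2 fold change of 0.98 (SE 0.22, edgeR adjusted p = 0.072). Smoc1, which encodes a calcium-binding relative of osteonectin, was lowest, at 49 ± 15.8 and 28.6 ± 10.8 CPM, a log2 fold change of -0.77 (SE 0.27, edgeR adjusted p = 0.173). DESeq2 called Ccn4 and Fstl1 as higher, and 2.78% of all genes to which it gave an adjusted p.

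Matrix partners, and proteinases that cut matricellular proteins or their ligands, had the highest medians of the 4 related lists. These lists were drawn up with earlier results of these data known, so their medians and shares are not independent of that choice. Of 11 matrix partners, 11 had a higher mean, 6 at an unadjusted p under 0.05, and the median of their log2 fold changes was 0.39. Over all tested genes, 7.89% were higher at that p. EdgeR called 0 of the matrix partners. DESeq2 called 4 as higher, where it called 2.78% of all genes to which it gave an adjusted p. Col1a1, the main collagen chain of bone, was highest at a log2 fold change of 1.35 (SE 0.39, edgeR adjusted p = 0.115), and Tgfb1 lowest at 0.02. Of 9 proteinases, 9 had a higher mean, 6 at an unadjusted p under 0.05, compared with 7.89% of all tested genes. The median log2 fold change of the proteinases was 0.83. The gelatinase gene Mmp2 was called, from 95.2 ± 8.01 CPM in Control (SD, n = 4) to 169 ± 29.2 CPM in BMAd-DTA mice (SD, n = 7), a log2 fold change of 0.83 (SE 0.12, edgeR adjusted p = 0.0326). Ctsk, the collagen-degrading cathepsin of osteoclasts, had the largest log2 fold change at 1.27 (SE 0.45, edgeR adjusted p = 0.173), and Adamts1 the smallest at 0.02.

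**Figure D5:**
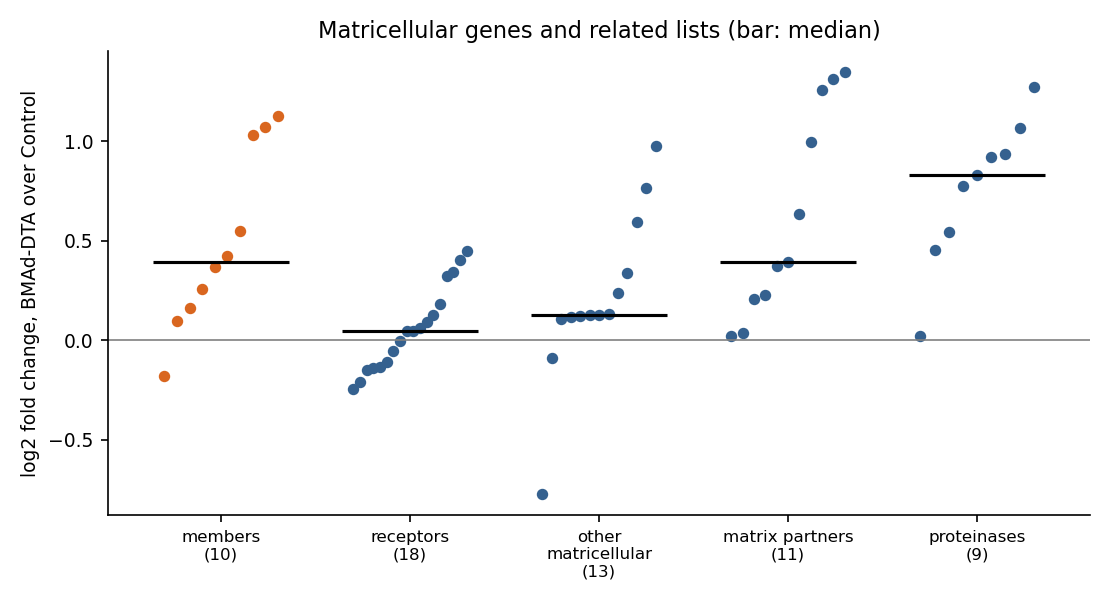
Log2 fold change (vertical axis, BMAd-DTA over Control, edgeR) of each tested gene of the 10 matricellular genes and of 4 related lists, with 1 point per gene, ordered within a list, and a bar at the median; the number tested stands under each name. The medians are 0.047 for receptors, 0.13 for other matricellular genes, 0.39 for matrix partners and 0.83 for proteinases.

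Counts came from the read strand, so exons shared with a gene on the opposite strand did not add to them. By GENCODE M21 such exons overlap Thbs1 (Gm29233, 208 bases), Thbs3 (Mtx1, 318 bases), Tnc (8030451A03Rik, 176 bases) and Tnxb (Cyp21a2-ps, 3 bases). The unstranded count of Thbs3 was 0.765 to 0.933 times its read-strand count.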

How the data were processed

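Stranded paired-end mRNA libraries were made from the whole distal tibia of each of 4 Control and 7 BMAd-DTA mice. The authors ran FastQC 0.11.9 (per the submitters' processing notes), aligned reads to mm10 with STAR at default settings and deposited unnormalized read counts per gene, both per library and merged into 1 table, which they tested with DESeq2. The release of their gene annotation is not given in the sources used here. In the merged table the values are those of the read strand, and 99.9% of its genes matched GENCODE M21 (GRCm38) by identifier without version, for positions and exon lengths. Totals were 16969529 to 18637663 counts per library. Libraries of 1 group all differed by more than sampling noise (chi-square per gene at least 18.3). Nothing in the labels gives separate litters, so p-values measure the spread between these mice.

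The merged counts were fitted with edgeR 4.0.16 under R 4.3.3 (filterByExpr, TMM, glmQLFit and glmQLFTest, two-sided, Benjamini-Hochberg over 16496 genes, genotype as the only term). Standard errors were derived from the log2 fold change and the F statistic. Alternatives were DESeq2 1.42.0, limma-voom (limma 3.58.1) with and without sample quality weights, RLE scaling, library totals, 2 filters, unstranded or read-strand counts of all genes, leaving out 28 globin and mitochondrial genes, a muscle or tendon score as covariate, an adjusted p under 0.1, and each mouse left out in turn. Each score was the mean log2 CPM of the tested markers of its list. The count at an unadjusted p was added after the data were seen. Steps were tested on simulated data. With 200 changed genes, DESeq2 made 26 to 36 false calls and edgeR 8 to 11. They recovered 76% to 77% and 71.5% to 72.5% of the changed genes. On null data they made at most 7 and 0 calls.

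The text names all 10 genes, of each related list the called genes and both extremes, of each marker list its sum and extremes of that sum, and for each of the 10 genes the 3 nearest among genes whose mean count was 50 or more (log2 CPM, prior count 2). Sdc4, Fstl1, Alpl, Retn, Col2a1 and the other tested chondrocyte markers, Ibsp, Lyz2, Cd68, Adgre1, Cxcl12, Lepr, the share of Fmod in the tendon sum and the ratios of genes were singled out after their values were seen. The genes and lists were chosen with earlier results of these data known.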

Additional observations from a re-analysis of the deposited data

Results flagged for a closer look

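In the opposite-strand counts, which no comparison above uses, Tnn had 46 counts in BMAd-DTA replicate 2, or 31.9% of its counts on both strands, more than in the Control mice, where it had 4 to 16 counts (4.21% to 23.9%). The other BMAd-DTA mice had 2 to 20 counts. Over all genes the opposite strand held 3.75% to 4.06% of the counts in every library, and GENCODE M21 has no gene whose exons overlap Tnn on either strand. The cause was not tested. For the CPM of the 10 genes in both groups, 20 sets of values in all, no mouse stood apart from its group by Dixon's test. With 4 Control mice this test has little power, so it does not show that no mouse was extreme.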

How the results depend on the processing

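EdgeR called 0 of the 10 genes. The count was 3 at an adjusted p under 0.1 and 3 with DESeq2 (Sparc, Tnc and Postn each time), 2 by limma-voom with sample quality weights (Tnc and Postn), 2 with the tendon score as covariate (Sparc and Tnc), and 0 to 2 with 1 mouse left out, the 2 (Tnc and Postn) without Control replicate 3. Over all genes edgeR's calls moved as well, from 13 to 292 without Control replicate 3 and to 0 without Control replicate 1 or 2 or BMAd-DTA replicate 1 or 6, and DESeq2 called 845. The count of genes higher at an unadjusted p under 0.05 was 6, and 3 to 6 with 1 mouse left out, lowest without Control replicate 2. Over the alternatives that kept all mice this count was 4 to 6, lowest with the tendon score as covariate. With 1 mouse left out, the log2 fold change was 0.84 to 1.24 for Sparc (adjusted p 0.0605 to 0.243), 0.90 to 1.17 for Tnc (0.0393 to 0.228) and 0.92 to 1.29 for Postn (0.0458 to 0.234), and 0.07 to 0.34 for Thbs1 and 0.27 to 0.54 for Thbs4. The sign turned for Sparcl1 (-0.27 to 0.0155, the latter without Control replicate 3) and Tnxb (-0.0624 to 0.25, the former without Control replicate 2). Over 12 other alternatives, the adjusted p was 0.0162 to 0.188 for Sparc, 3.05e-05 to 0.132 for Tnc and 0.00496 to 0.135 for Postn, and no sign turned. The cause was not tested. No paired analysis was possible because the labels give no replicate numbers that tie Control to BMAd-DTA mice. With a minimum of 51 counts per library, depth limits Tnn most.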
